A study of Homo sapiens with 4 samples.

Results

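The genes described here encode the cytosolic translation initiation factors (eIF1 to eIF6) and elongation factors (eEF1 and eEF2), with the kinases that act on eIF2 and the proteins that bind eIF4E. They were taken by symbol from the deposited gene counts: every symbol that starts with EIF1, EIF2, EIF3, EIF4, EIF5, EIF6, EEF1 or EEF2. Of 70 such symbols, 4 EIF2C genes (which encode Argonaute proteins), 2 pseudogenes and 1 readthrough symbol were left out. That left 63 members among 23228 gene symbols, and 57 of them were measured, meaning a mean of at least 1 CPM (gene counts scaled by library size) over the libraries compared. The rule uses symbols alone.

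Initiation factors bring the initiator methionyl-tRNA and the small ribosomal subunit to the capped end of an mRNA and then to its start codon. Elongation factors deliver each aminoacyl-tRNA and move the ribosome along the message. The rate is set chiefly by phosphorylation, of eIF2 by stress-activated kinases, of the eIF4E-binding proteins by mTORC1 and of eEF2 by its own kinase, so transcript levels alone do not give the activity of these factors.

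The libraries came from A673, an established Ewing sarcoma cell line, lipofected with siRNA and harvested 48 h later. The siSMPD1 library, from cells given siRNA against SMPD1 (acid sphingomyelinase), is set against control_SMPD1, and the siGPR64 library, from cells given siRNA against GPR64 (an adhesion G protein-coupled receptor), against control_GPR64. Both controls received scrambled siRNA. All 4 groups share the cell line, the transfection and the harvest time, and the titles pair each knockdown with its control. The sources used here do not say whether both pairs came from the same culture or sequencing run.

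There was 1 library per group, so no difference below has a replicate check. Each ratio compares a pair of libraries, and its 95% interval (exact Clopper-Pearson) covers counting error only. Gene counts summed to 18849264 in siSMPD1 and 19614913 in control_SMPD1, but to 2534861 in siGPR64 and 2882854 in control_GPR64. A count of 0 allowed up to 0.159 and 0.156 CPM in siSMPD1 and control_SMPD1, and up to 1.18 and 1.03 CPM in siGPR64 and control_GPR64. SMPD1 stood at 91.7 CPM in siSMPD1 against 414 CPM in control_SMPD1, and at 232 CPM in siGPR64 against 52.8 CPM in control_GPR64. The siSMPD1 library was thus lower for its target than its paired control, but higher than the other control. GPR64 stood at 50.1 CPM in siGPR64 against 108.6 CPM in control_GPR64, and at 539 CPM in siSMPD1 against 388 CPM in control_SMPD1. The labels give the tissue as muscle. The muscle gene MYOG was at 0 in every library and DES at no more than 0.053 CPM, while the muscle gene MYH3 lay between 1.43 and 2.03 CPM. The Ewing sarcoma genes NKX2-2 and NR0B1 lay between 70.1 and 143.8 CPM. CD99, a surface marker of this tumour, was listed at 0 in all 4 libraries. In such bulk libraries, fewer cells with a transcript and less of it per cell cannot be told apart.

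The highest library stood within 1.5-fold of the lowest for 32 of the 57 measured members (56.1%), beside 35.1% of all genes at that level. Above a mean of 50 CPM over the 4 libraries it did for 28 of 42 members (66.7%), beside 50.8%. The other 25 measured members were more spread, up to 10.5-fold for EIF5AL1 and 5.50-fold for EIF4E3. The members held 1.43% of all gene counts in siSMPD1 and 1.59% in control_SMPD1, and 1.83% in siGPR64 and 1.81% in control_GPR64. The share was 0.901 times that of the paired control in siSMPD1 and 1.01 times in siGPR64. A rule of size was used to count members: at least 2-fold between the libraries, with a counting interval that excludes equality. By it 0 of 57 members differed in siSMPD1, where 3.6% of all genes measured did (2.49% higher and 1.11% lower). In siGPR64 1 of 57 did, EIF5A2, which was higher, beside 11.7% of all genes (6.56% higher and 5.18% lower). Between the controls, control_GPR64 over control_SMPD1, 6 of 57 did, beside 15.4% of all genes. The order of the 3 comparisons was thus the same over the members as over all genes, and each share of members was below that of all genes. At a limit of 1.5-fold it was again, with 1 member in siSMPD1, 8 in siGPR64 and 15 between the controls, beside 12%, 24.5% and 31.1% of all genes.

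**Figure D1:**
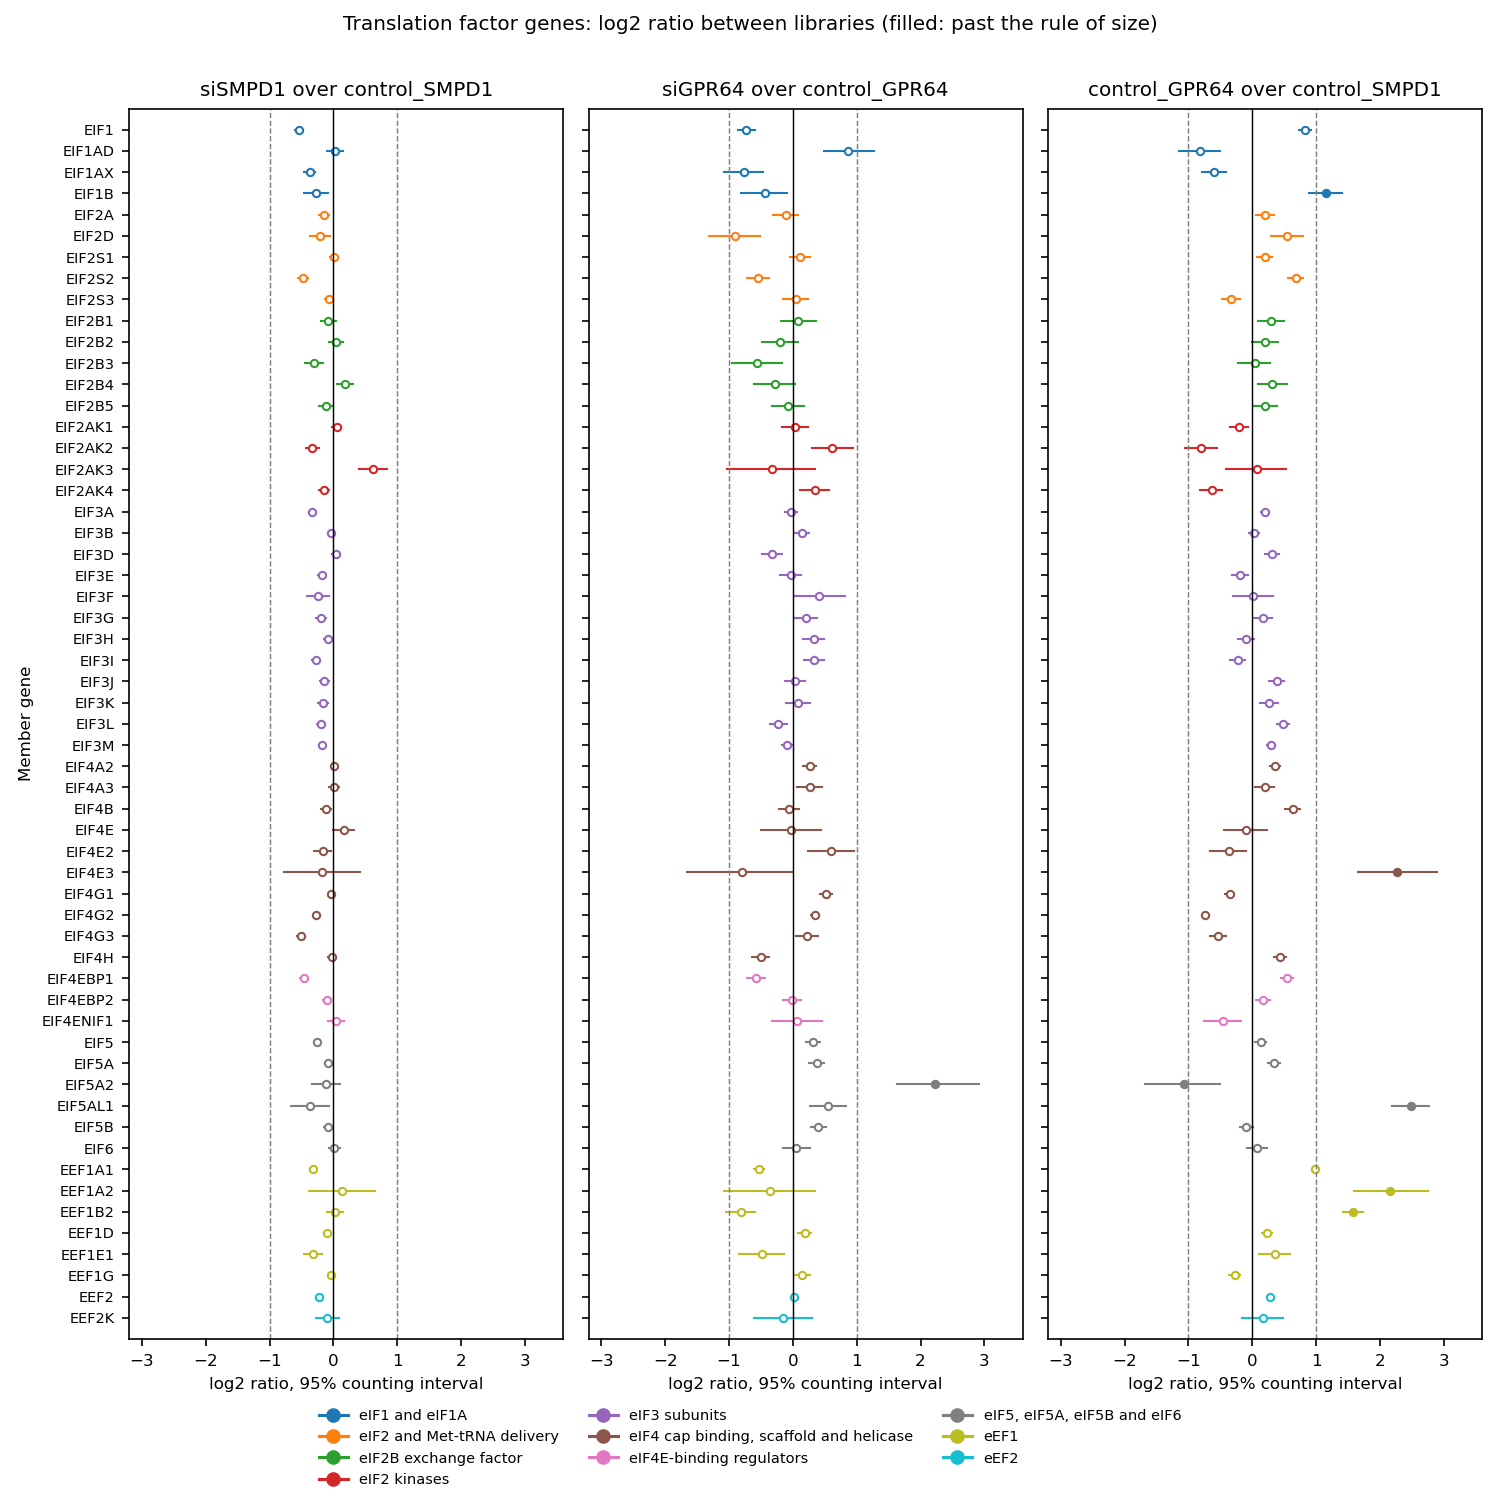
Log2 ratio of each of the 57 measured members in 3 comparisons, ordered by role, with 95% counting intervals as lines, dashed lines at 2-fold and filled points past the rule of size. No point is filled for siSMPD1, EIF5A2 alone is filled for siGPR64, and 6 points are filled between the controls.

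Below 2-fold, the siSMPD1 library leaned to lower values for these genes. Its median log2 ratio to control_SMPD1 was -0.12 over the 57 members, and -0.00 over all 12749 genes measured. The ratio was below 0 for 43 of the members (75.4%), where it was for 50.5% of all genes. The counting interval lay wholly on the lower side for 37 members (64.9%), beside 28.8% of all genes, and wholly on the higher side for 2 (3.51%), beside 28.1%. Intervals are narrower for genes with many reads, so the count was repeated among genes of at least 50 CPM. There 30 of 44 members (68.2%) were lower, beside 40.7% of all genes, and 1 was higher, beside 31.1%. Against the other control, control_GPR64, the median was -0.28. The 23 members with an interval on the lower side against both controls made up 40.4%, beside 14.7% of all genes, and EIF2AK3 alone was on the higher side against both, beside 15.3%. Counts against both controls, here and for siGPR64 below, were not repeated among genes of at least 50 CPM.

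The siGPR64 library had intervals on both sides. Its median log2 ratio to control_GPR64 was 0.03, and 0.01 over all genes. The interval was on the higher side for 21 members (36.8%), beside 22.2% of all genes, and on the lower side for 14 (24.6%), beside 20.2%. Among genes of at least 50 CPM, 18 of 45 members (40.0%) were higher and 11 (24.4%) lower, beside 29.7% and 27.6% of all genes. Against control_SMPD1 the median was 0.16, with 28 members on the higher side and 11 on the lower side, beside 25.5% and 25.3% of all genes. In siGPR64, 13 members (22.8%) were on the higher side against both controls, beside 10.5% of all genes, and 3 (5.26%) on the lower side, beside 9.63%.

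**Figure D2:**
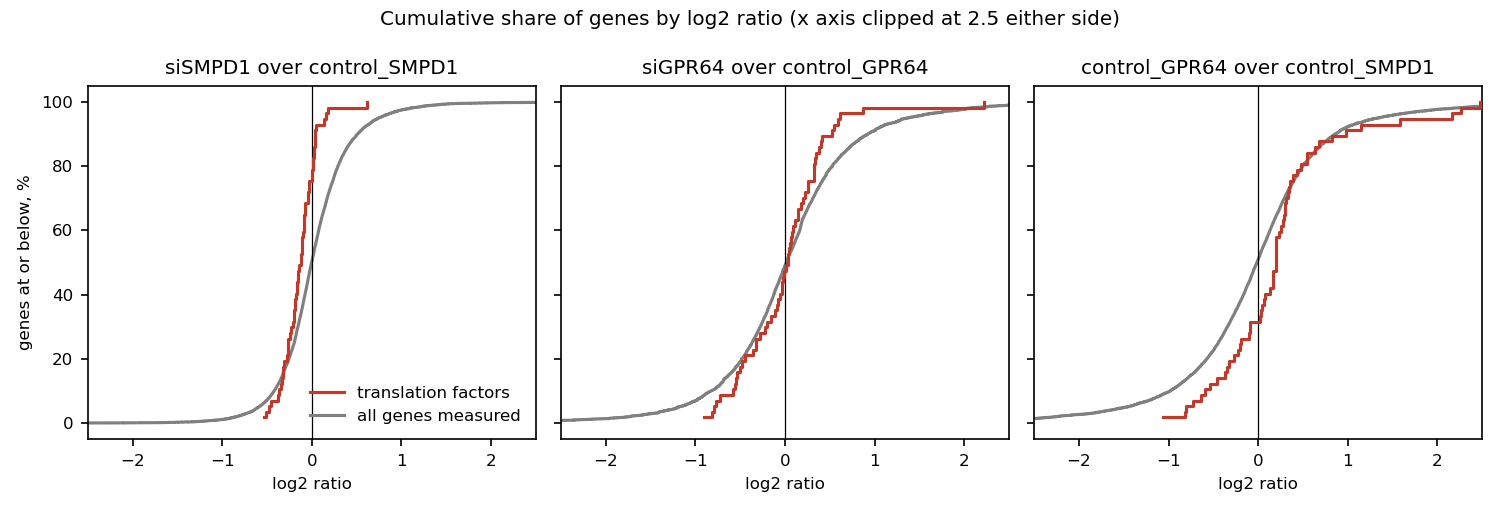
Cumulative percentage of genes at or below each log2 ratio, for the 57 measured translation factors and for all genes measured, in 3 comparisons. For siSMPD1 over control_SMPD1 the factors reach 75.4% below 0 where all genes reach 50.5%, and for control_GPR64 over control_SMPD1 the curve of the factors lies to the right of that of all genes at its middle, with a median of 0.20.

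A shared feature of many mRNAs of the translation apparatus is a C at the start followed by pyrimidines, the terminal oligopyrimidine tract through which mTORC1 tunes their translation. Among 52 members with an entry in the RefSeq promoter table (GRCh38.p14), 11 began with C and 4 further pyrimidines (21.2%), where 1104 of 27305 promoters did (4.04%). They were EEF1A1, EEF2, EIF2A, EIF2D, EIF2S3, EIF3D, EIF3F, EIF3K, EIF3M, EIF4A2 and EIF4B. The first 20 transcribed bases of 6 of them follow, 5′ to 3′ on the sense strand, with the starting run of pyrimidines in capitals. They are shown because they include the elongation factor genes, the longest runs and, in EIF4B, the shortest run. They also include the members named below at the ends of the ratios in siSMPD1 and siGPR64.
EEF1A1: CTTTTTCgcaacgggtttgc
EEF2: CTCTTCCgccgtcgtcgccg
EIF2D: CCTTTTCgcggccgggcccc
EIF3D: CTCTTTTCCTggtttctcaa
EIF3F: CTTCTTTCTCgacaagatgg
EIF4B: CTTTTgcgttctctttccct
These stretches lie at chr6:73521013-73521032 (minus strand) for EEF1A1, chr19:3985444-3985463 (minus) for EEF2, chr1:206612446-206612465 (minus) for EIF2D, chr22:36529147-36529166 (minus) for EIF3D, chr11:7987337-7987356 (plus) for EIF3F and chr12:53006456-53006475 (plus) for EIF4B.

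In siSMPD1, the 11 members with such a start had a median log2 ratio of -0.17, between -0.32 for EEF1A1 and 0.03 for EIF3D, and 9 of them were below 0. The 36 measured members with another start had a median of -0.10, and 26 were below 0. Over all genes the medians were -0.05 for 495 genes with a pyrimidine start and -0.01 for 8422 without. Of these genes, 56.8% and 50.6% were below 0. In siGPR64 the 11 had a median of -0.06, between -0.90 for EIF2D and 0.41 for EIF3F, and the other 36 a median of 0.07. Over all genes the medians there were -0.01 with a pyrimidine start and 0.01 without. Between the controls the 11 had a median of 0.29, with 10 above 0, and the other 36 a median of 0.11. Over all genes these medians were 0.06 and -0.02, and 276 of 498 genes with a pyrimidine start were above 0. The difference between the 2 kinds of start was not tested. The 8-base amino acid response motif TGATGNAA, read on both strands over 250 bases before and 50 after the start, was in 0 of the 52 promoters and in 3.67% of all promoters. EEF1A2, EEF1D, EIF2AK1, EIF2S2, EIF3A, EIF3CL, EIF3E, EIF3G, EIF3H, EIF3L and EIF4EBP1 had no entry.

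The factors that scan for the start codon come first. EIF1 encodes the small protein that keeps the scanning ribosome open until the start codon is met. EIF1 stood at 176 CPM in siSMPD1 against 256 CPM in control_SMPD1, and at 274 CPM in siGPR64 against 455 CPM in control_GPR64. It was lower in both knockdown libraries than in the paired control, 1.45-fold (1.39 to 1.52) and 1.66-fold (1.51 to 1.82). With the control of the other pair in its place, EIF1 was 2.58-fold lower in siSMPD1, but 1.07-fold higher in siGPR64, with an interval of 0.986 to 1.16. Its paralogue EIF1B stood at 21.5 CPM in siSMPD1 against 25.9 CPM in control_SMPD1, and at 42.3 CPM in siGPR64 against 57.5 CPM in control_GPR64. EIF1B held 10.8% of the reads of the pair EIF1 and EIF1B in siSMPD1 and 9.18% in control_SMPD1, and 13.4% in siGPR64 and 11.2% in control_GPR64.

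EIF1AX, for the eIF1A that binds beside EIF1 on the small subunit, stood at 103.5 CPM in siSMPD1 against 134 CPM in control_SMPD1, and at 52.1 CPM in siGPR64 against 88.7 CPM in control_GPR64. The siSMPD1 library was 1.30-fold lower (1.22 to 1.38) and the siGPR64 library 1.70-fold lower (1.38 to 2.12). Against control_SMPD1 the siGPR64 library was 2.57-fold lower, past the rule of size, while siSMPD1 was 1.17-fold higher than control_GPR64. EIF1AD, a protein with an eIF1A-like domain, stood at 55.5 CPM in siSMPD1 against 54.5 CPM in control_SMPD1, and at 56.4 CPM in siGPR64 against 30.8 CPM in control_GPR64. The control_GPR64 library was the low one among the 4. In siGPR64 EIF1AD was 1.82-fold higher than in it (1.40 to 2.41). EIF1AY had 0 counts in all 4 libraries.

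The eIF2 complex, which carries the initiator tRNA, has 3 subunits. EIF2S1, the subunit whose serine the stress kinases phosphorylate, lay within 1.24-fold over the 4 libraries, at 198 CPM in siSMPD1 against 197 CPM in control_SMPD1, and 244 CPM in siGPR64 against 226 CPM in control_GPR64. EIF2S2, the beta subunit, stood at 113.6 CPM in siSMPD1 against 158 CPM in control_SMPD1, and at 173 CPM in siGPR64 against 253 CPM in control_GPR64. The fold was 1.39 lower in siSMPD1 (1.32 to 1.47) and 1.46 lower in siGPR64 (1.30 to 1.65). With the control of the other pair it was 2.23-fold lower in siSMPD1, past the rule of size, but 1.09-fold higher in siGPR64 (0.987 to 1.21). EIF2S3, the GTP-binding gamma subunit, had a log2 ratio of -0.07 in siSMPD1 and 0.04 in siGPR64. The subunits of a single complex thus did not share one ratio. EIF2S2 has 4 named pseudogenes in the GENCODE annotation and both other subunits have 0, and the part of that in the result was not tested.

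EIF2A and EIF2D encode proteins that can deliver initiator tRNA without eIF2. EIF2D stood at 33.2 CPM in siSMPD1 against 38.6 CPM in control_SMPD1, and at 30.2 CPM in siGPR64 against 56.5 CPM in control_GPR64. It was 1.16-fold lower in siSMPD1 (1.04 to 1.29). In siGPR64 EIF2D was 1.87-fold lower (1.42 to 2.49), the lowest ratio of any member there, and still lower against control_SMPD1, by 1.28-fold (1.01 to 1.64). The log2 ratio of EIF2A was -0.15 in siSMPD1 and -0.11 in siGPR64.

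The eIF2B genes, which encode the complex that recharges eIF2 with GTP, differed little. In siSMPD1 their log2 ratios ran from -0.31 for EIF2B3 to 0.18 for EIF2B4, and in siGPR64 from -0.56 for EIF2B3 to 0.08 for EIF2B1. EIF2B3, the gamma subunit, stood at 41.0 CPM in siSMPD1 against 50.7 CPM in control_SMPD1, and at 35.3 CPM in siGPR64 against 52.1 CPM in control_GPR64. It was the only eIF2B gene with an interval on the lower side in both pairs, and its interval stayed on that side against the other control too. EIF2B4 was 1.13-fold higher in siSMPD1 (1.04 to 1.23). EIF2B1, EIF2B2 and EIF2B5 lay within 1.39-fold over the 4 libraries.

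The eIF2 kinases went different ways against the paired controls. EIF2AK3 encodes PERK, the kinase that senses unfolded protein in the endoplasmic reticulum. EIF2AK3 had 431 counts in siSMPD1 and 287 in control_SMPD1, which is 22.8 CPM against 14.9 CPM, and 32 counts in siGPR64 and 46 in control_GPR64, which is 12.5 CPM against 15.8 CPM. The siSMPD1 library was the high one, 1.53-fold above its control (1.31 to 1.78) and 1.45-fold above control_GPR64 (1.07 to 2.01). In siGPR64 the interval spanned equality. EIF2AK2 encodes PKR, which is activated by double-stranded RNA and induced by interferon. It stood at 68.8 CPM in siSMPD1 against 86.6 CPM in control_SMPD1, and at 76.4 CPM in siGPR64 against 49.7 CPM in control_GPR64. EIF2AK2 was 1.26-fold lower in siSMPD1 (1.17 to 1.35). In siGPR64 it was 1.54-fold higher (1.23 to 1.92). EIF2AK4, which encodes GCN2, the kinase that senses uncharged tRNA, was 1.11-fold lower in siSMPD1 and 1.27-fold higher in siGPR64. Against the other control the direction of both kinases turned round in each knockdown, with log2 ratios of 0.47 and 0.49 in siSMPD1 and of -0.18 and -0.30 in siGPR64. For EIF2AK2 in siGPR64 that interval spanned equality (0.976 to 1.32). EIF2AK1, the heme-regulated kinase, had log2 ratios of 0.05 in siSMPD1 and 0.03 in siGPR64, and of 0.25 and -0.17 against the other control. With the controls exchanged, the intervals of all 4 kinases were thus on the higher side in siSMPD1, beside 30.9% of all genes. In siGPR64 all 4 ratios were then below 0, beside 51.1% of all genes. Only 2 intervals were on the lower side there (EIF2AK1 and EIF2AK4), beside 25.3% of all genes.

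The eIF3 complex, the large scaffold that holds the small subunit and the mRNA, has 14 genes in the list and 12 were measured. In siSMPD1 the interval was on the lower side for 11 of the 12, beside 28.8% of all genes, and EIF3D, a cap-binding subunit, was the exception. The size was small throughout: the median log2 ratio was -0.18, and EIF3A, the scaffold subunit, had the lowest at -0.34. EIF3A stood at 487.5 CPM in siSMPD1 against 619 CPM in control_SMPD1, and at 695 CPM in siGPR64 against 712 CPM in control_GPR64. Against control_GPR64, 7 of the 12 were on the lower side in siSMPD1 and 0 on the higher side, beside 29.7% and 30.9% of all genes, with EIF3E, EIF3H and EIF3I among the 5 that spanned equality. In siGPR64 the 12 were split against control_GPR64, with 5 on the higher side (EIF3B, EIF3F, EIF3G, EIF3H and EIF3I), beside 22.2% of all genes, 3 on the lower side (EIF3D, EIF3L and EIF3M), beside 20.2%, and a median of 0.05. Against control_SMPD1, 9 of the 12 were on the higher side in siGPR64, beside 25.5% of all genes, and 1 on the lower side, beside 25.3%, with a median of 0.22. EIF3F, a regulatory subunit, had the highest ratio there, at 46.6 CPM in siGPR64 against 34.9 CPM in control_GPR64, and 29.2 CPM in siSMPD1 against 34.6 CPM in control_SMPD1. All 12 lay within 1.5-fold in each pair.

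EIF3C and EIF3CL, near-identical copies of a core subunit, had 0 counts in every library. Their coding sequences in GENCODE 29 (GRCh38) are 99.9% identical, and 2655 of the 2693 windows of 50 bases in EIF3CL (98.6%) also occur in EIF3C. Entries recorded as not uniquely aligned stand outside the gene counts, and over the whole library they were 29.1% in siSMPD1 and 30.1% in control_SMPD1, and 20.1% in siGPR64 and 21.4% in control_GPR64. Their part in the counts of 0 was not tested.

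Within the cap-binding eIF4F complex, the scaffolds differed in direction. EIF4G1, the main scaffold between the cap-binding protein and eIF3, stood at 711 CPM in siSMPD1 against 730.2 CPM in control_SMPD1, and at 823 CPM in siGPR64 against 572 CPM in control_GPR64. In siGPR64 it was 1.44-fold higher (1.35 to 1.53), and in siSMPD1 1.03-fold lower (1.0 to 1.05). EIF4G3, a second scaffold with the same role, stood at 205 CPM in siSMPD1 against 292 CPM in control_SMPD1, and at 234 CPM in siGPR64 against 201 CPM in control_GPR64. The control_SMPD1 library was the high one. EIF4G3 was 1.42-fold lower in siSMPD1 (1.37 to 1.48), but 1.02-fold higher when set against control_GPR64 (0.936 to 1.12). It held 22.4% of the reads of EIF4G1 and EIF4G3 in siSMPD1 and 28.5% in control_SMPD1, and 22.1% in siGPR64 and 26.0% in control_GPR64. EIF4G2, a scaffold without the eIF4E site that serves cap-independent initiation, stood at 1743 CPM in siSMPD1 against 2102 CPM in control_SMPD1, and at 1607 CPM in siGPR64 against 1266 CPM in control_GPR64. It was 1.21-fold lower in siSMPD1 and 1.27-fold higher in siGPR64. Both directions turned round with the other control, to 1.38-fold higher in siSMPD1 (1.33 to 1.43) and 1.31-fold lower in siGPR64 (1.27 to 1.35).

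EIF4E, the cap-binding protein itself, lay within 1.21-fold over the 4 libraries, and both of its intervals spanned equality. EIF4E2, a homologue known as a repressor that competes for the cap, was lower in siSMPD1 by 1.12-fold (1.02 to 1.23) but higher in siGPR64, by 1.51-fold (1.18 to 1.94). EIF4E3, a further homologue, had 47 counts in siSMPD1 and 54 in control_SMPD1, and 20 in siGPR64 and 40 in control_GPR64. These are 2.49 CPM against 2.81 CPM and 7.83 CPM against 13.7 CPM, so both libraries of the GPR64 pair stood above both of the SMPD1 pair. The helicase EIF4A2 had log2 ratios of 0.00 in siSMPD1 and 0.26 in siGPR64. EIF4A3, the related helicase of the exon junction complex, had 0.01 in siSMPD1 and 0.26 in siGPR64. EIF4H, a cofactor of the helicase, was 1.42-fold lower in siGPR64 (1.29 to 1.56), and its interval spanned equality in siSMPD1. EIF4B, another cofactor, was 1.08-fold lower in siSMPD1 (1.03 to 1.14), and its interval in siGPR64 spanned equality.

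EIF4A1, the main helicase gene, had 0 counts in every library. In GENCODE 29, 1294 of its 1539 coding bases (84.1%) also lie in exons of the readthrough gene SENP3-EIF4A1. That symbol had 6 counts in siSMPD1 and 4 in control_SMPD1, and 2 in siGPR64 and 0 in control_GPR64. Entries that overlapped more than 1 gene made up between 0.54% and 0.715% of each library, and their part in the absence of EIF4A1 was not tested. EIF4E1B, an oocyte homologue of EIF4E, was also at 0 throughout.

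The eIF4E-binding proteins block assembly of the cap complex when they are unphosphorylated. EIF4EBP1 stood at 201 CPM in siSMPD1 against 277 CPM in control_SMPD1, and at 270.3 CPM in siGPR64 against 403 CPM in control_GPR64. The gene was lower in each knockdown than in its own control, by 1.38-fold (1.32 to 1.43) for siSMPD1 and by 1.49-fold (1.36 to 1.64) for siGPR64. It was 2.0-fold lower in siSMPD1 against control_GPR64, whereas siGPR64 and control_SMPD1 differed by 1.02-fold (0.946 to 1.11). EIF4EBP2, the second family member, had log2 ratios of -0.11 in siSMPD1 and -0.01 in siGPR64. EIF4EBP3 had 4 counts in siSMPD1 and 8 in control_SMPD1, and 1 in siGPR64 and 0 in control_GPR64, too few to compare. EIF4ENIF1, which carries eIF4E into the nucleus, had intervals that spanned equality in both pairs.

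The factors of subunit joining and of eIF5A form the group with the most uniform direction in siGPR64. All 6 ratios were above 0 there, and 5 intervals were on the higher side, beside 22.2% of all genes, for EIF5, EIF5A, EIF5A2, EIF5AL1 and EIF5B. EIF5, which triggers GTP hydrolysis by eIF2 at the start codon, stood at 546 CPM in siGPR64 against 436 CPM in control_GPR64, and at 331 CPM in siSMPD1 against 397 CPM in control_SMPD1. EIF5B, the GTPase that joins the subunits, stood at 444 CPM in siGPR64 against 336 CPM in control_GPR64, and at 336 CPM in siSMPD1 against 358 CPM in control_SMPD1. Both were higher in siGPR64, 1.25-fold and 1.32-fold, and lower in siSMPD1, 1.20-fold and 1.07-fold. EIF6, which keeps the large subunit from joining too early, lay within 1.09-fold over all 4 libraries.

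EIF5A helps the ribosome through stretches such as consecutive prolines, and is the protein known to carry hypusine, a modified lysine. Humans have the main gene EIF5A, the restricted paralogue EIF5A2 and the retrocopy EIF5AL1. The coding stretch around the lysine that becomes hypusine is shown because it tells how far reads of the 3 genes can be separated. Bases 121 to 180 of each coding sequence in GENCODE 29 follow, 5′ to 3′, with capitals where a base differs from EIF5A.
EIF5A: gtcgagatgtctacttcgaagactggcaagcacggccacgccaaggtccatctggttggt
EIF5AL1: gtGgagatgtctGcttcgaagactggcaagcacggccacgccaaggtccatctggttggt
EIF5A2: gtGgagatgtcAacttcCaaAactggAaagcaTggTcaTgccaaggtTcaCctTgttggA
In GRCh38 the genes lie at chr17:7306999-7312463 (plus strand) for EIF5A, chr10:79512601-79516440 (plus) for EIF5AL1 and chr3:170888415-170908693 (minus) for EIF5A2. EIF5AL1 differed from EIF5A at 2 of the 60 bases and was 98.9% identical over the coding sequence, and 274 of its 413 windows of 50 bases (66.3%) also occur in EIF5A. EIF5A2 differed at 12 of the 60 bases and was 71.0% identical, and it shared 0 of 410 windows.

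EIF5A2 had 112 counts in siGPR64 and 27 in control_GPR64, and 337 in siSMPD1 and 372 in control_SMPD1. These are 43.9 CPM against 9.25 CPM, and 17.9 CPM against 19.4 CPM. The siGPR64 library was the highest of the 4 and control_GPR64 the lowest. EIF5A2 was 4.67-fold higher in siGPR64 than in control_GPR64 (3.09 to 7.51) and 2.26-fold higher than in control_SMPD1 (1.82 to 2.81), so it was past the rule of size against both. The controls differed too: EIF5A2 was 2.09-fold lower in control_GPR64 than in control_SMPD1 (1.42 to 3.22). In siSMPD1 the interval spanned equality. As a share of the reads of EIF5A and EIF5A2, EIF5A2 held 7.85% in siGPR64 (exact interval 6.51% to 9.37%) against 2.28% in control_GPR64 (1.51% to 3.30%), and 5.68% in siSMPD1 against 5.81% in control_SMPD1.

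EIF5A itself stood at 515 CPM in siGPR64 against 397 CPM in control_GPR64, and at 296 CPM in siSMPD1 against 314 CPM in control_SMPD1. It was 1.30-fold higher in siGPR64 (1.20 to 1.41). EIF5AL1 had 235 counts in siGPR64 and 184 in control_GPR64, and 165 in siSMPD1 and 216 in control_SMPD1, although the SMPD1 pair was sequenced far deeper. These are 92.1 CPM against 63.0 CPM, and 8.74 CPM against 11.2 CPM. EIF5AL1 held 15.2% of the reads of EIF5A and EIF5AL1 in siGPR64 and 13.7% in control_GPR64, but 2.87% in siSMPD1 and 3.46% in control_SMPD1. The share was thus higher in both libraries of the GPR64 pair than in both of the SMPD1 pair. Since most windows of this gene are not unique, its count also depends on how reads were placed, and the part of that in the difference was not tested.

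**Figure D3:**
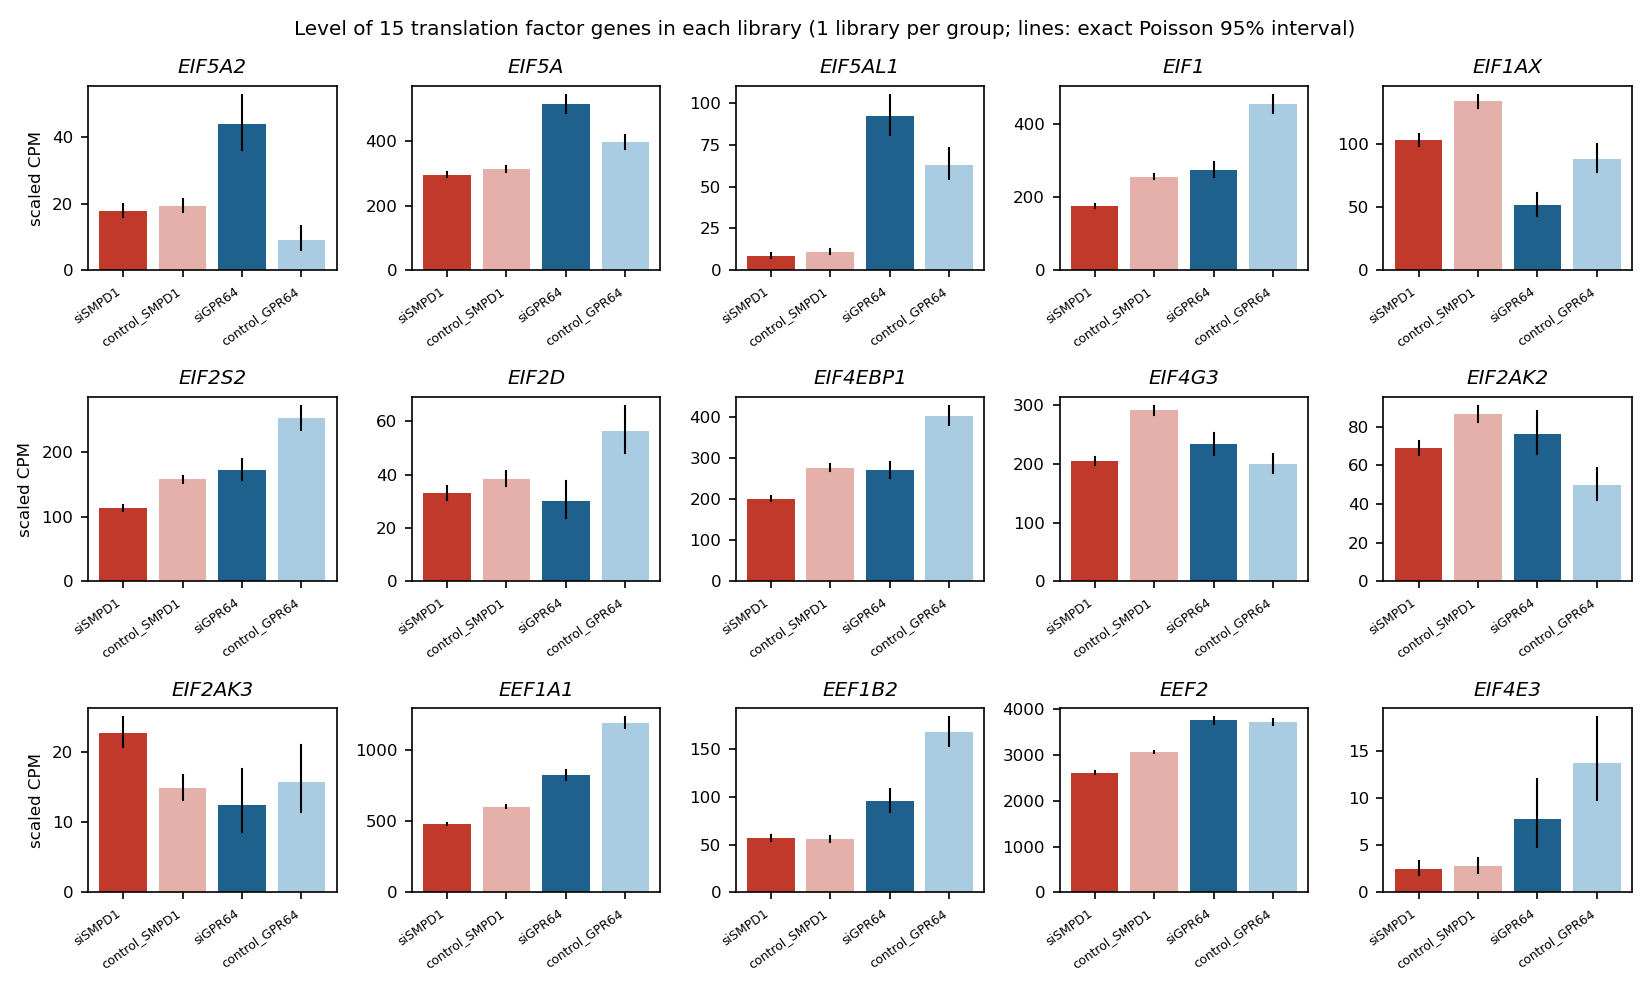
Scaled CPM of 15 members in each of the 4 libraries, with exact Poisson 95% intervals as lines and a vertical axis from 0 in each panel. EIF5A2 is highest in siGPR64 (43.9 CPM) and lowest in control_GPR64 (9.25 CPM), EIF5AL1 and EEF1B2 are higher in both libraries of the GPR64 pair, and EIF2AK3 is highest in siSMPD1 (22.8 CPM).

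The elongation factor eEF1A brings aminoacyl-tRNA to the ribosome. EEF1A1, its main gene, stood at 481 CPM in siSMPD1 against 603 CPM in control_SMPD1, and at 823 CPM in siGPR64 against 1193 CPM in control_GPR64. EEF1A1 too was below the paired control in both knockdowns, by 1.25-fold (1.22 to 1.29) for siSMPD1 and by 1.45-fold (1.37 to 1.53) for siGPR64. The siGPR64 library was still 1.37-fold higher than control_SMPD1 (1.30 to 1.43). EEF1A2, the muscle and neuronal paralogue, had 69 counts in siSMPD1 and 64 in control_SMPD1, and 30 in siGPR64 and 44 in control_GPR64, with intervals that spanned equality in both pairs. It held 0.754% of the reads of the 2 genes in siSMPD1 and 0.55% in control_SMPD1, and 1.41% in siGPR64 and 1.25% in control_GPR64.

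The exchange factor eEF1B reloads eEF1A with GTP. EEF1B2, its alpha subunit, stood at 57.2 CPM in siSMPD1 against 56.2 CPM in control_SMPD1, and at 95.6 CPM in siGPR64 against 169 CPM in control_GPR64. It was 1.76-fold lower in siGPR64 (1.51 to 2.06), yet 1.70-fold higher there than in control_SMPD1 (1.48 to 1.96). EEF1D and EEF1G, the other exchange subunits, were 1.14-fold and 1.11-fold higher in siGPR64, so the subunits again did not share a ratio. Against control_SMPD1, EEF1D was 1.34-fold higher in siGPR64, but EEF1G was 1.09-fold lower (1.03 to 1.16). EEF1E1, a small protein of the tRNA synthetase complex, was lower in both knockdowns, 1.25-fold in siSMPD1 and 1.40-fold in siGPR64. EEF2, the translocase that moves the ribosome by a codon, stood at 2612 CPM in siSMPD1 against 3059 CPM in control_SMPD1, and at 3749 CPM in siGPR64 against 3713 CPM in control_GPR64. EEF2 was 1.17-fold lower in siSMPD1 (1.16 to 1.19). Its interval in siGPR64 spanned equality. EEF2K, the kinase that switches eEF2 off, had 507 counts in siSMPD1 and 552 in control_SMPD1, and 74 in siGPR64 and 94 in control_GPR64, and spanned equality in both pairs.

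Across the pairs, which share no library, 11 members had intervals on the lower side in both: EEF1A1, EEF1E1, EIF1, EIF1AX, EIF1B, EIF2B3, EIF2D, EIF2S2, EIF3L, EIF3M and EIF4EBP1. Among all genes 8.43% were lower in both. With the controls exchanged, 10 of the 11 were on the lower side in siSMPD1, EIF1AX being on the higher side, but 3 were in siGPR64 (EIF1AX, EIF2B3 and EIF2D). There EEF1A1, EIF1B, EIF3L and EIF3M were on the higher side, and the other 4 spanned equality. None of the 57 was higher in both, where 8% of all genes were. A further 16 members had intervals on opposite sides, beside 11.7% of all genes. EIF2AK2, EIF2AK4, EIF4G1, EIF4G2, EIF4G3, EIF5, EIF5A and EIF5B were among them, each lower in siSMPD1 and higher in siGPR64. With the controls exchanged, 5 of the 16 were on the lower side in siSMPD1, 7 spanned equality and 4 were on the higher side (EIF2AK2, EIF2AK4, EIF4G1 and EIF4G2). In siGPR64, 10 were then on the higher side, 3 spanned equality and 3 were on the lower side (EIF2AK4, EIF4G2 and EIF4G3).

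The scrambled controls differed from each other for many of these genes. In control_GPR64 over control_SMPD1, 33 members were on the higher side, beside 27.9% of all genes, and 15 on the lower side, beside 29.4%, and the median log2 ratio was 0.20 against -0.01 over all genes. The 5 members past the rule of size that were higher in control_GPR64, beside 7.02% of all genes, were EIF5AL1 (5.59-fold), EIF4E3 (4.81-fold), EEF1A2 (4.48-fold), EEF1B2 (3.0-fold) and EIF1B (2.22-fold), and EIF5A2 was the 1 that was lower, beside 8.33%. EEF1A1 lay just under the rule at 1.98-fold (1.91 to 2.06). The level of a gene in a control enters each knockdown ratio above that is set against that control. Set against control_GPR64, siSMPD1 had 9 members past the rule, beside 18.5% of all genes, and all 9 were lower, beside 8.02% lower and 10.5% higher. Set against control_SMPD1, siGPR64 had 5, beside 11.4%, with 4 higher and 1 lower, beside 6.18% and 5.25%.

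Members with many pseudogenes had higher ratios between the controls. In control_GPR64 over control_SMPD1 the median log2 ratio was 0.64 for the 9 members with 4 or more pseudogenes named after them in GENCODE. It was 0.19 for the 16 with 1 to 3 and 0.17 for the 32 with 0. Over all genes the same medians were 0.29, 0.09 and -0.04. In siSMPD1 the members' medians were -0.11, -0.18 and -0.09 in the same order, and in siGPR64 they were -0.06, 0.04 and 0.04. The share of reads not uniquely aligned also differed between the pairs, as given above, and its part in these ratios was not tested.

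**Figure D4:**
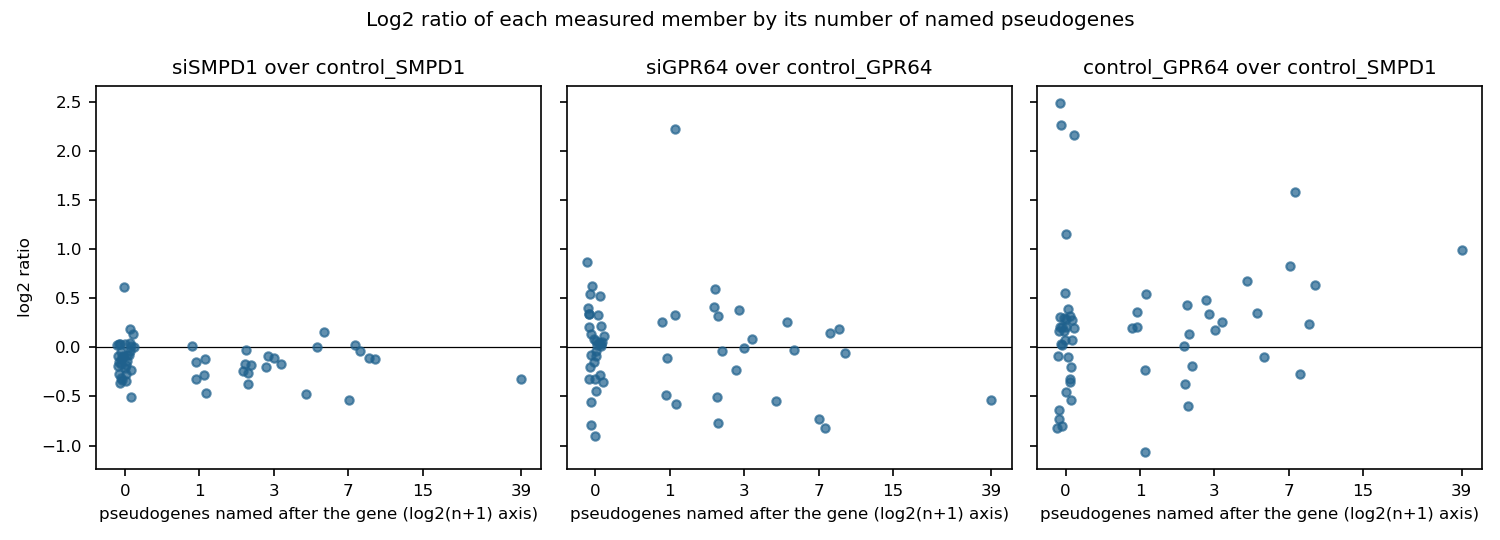
Log2 ratio of each measured member against the number of GENCODE pseudogenes named after it, in 3 comparisons. The number is spaced as log2 of the number plus 1, and points are spread sideways for sight. In control_GPR64 over control_SMPD1, 7 of the 9 members with 4 or more pseudogenes lie above 0, beside 218 of the 307 genes with as many among all genes. EEF1A1 (39 pseudogenes) lies at 0.99 and EEF1B2 (8 pseudogenes) at 1.58.

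Other genes of translation, from a list of 45 that were all measured, were set beside the factors. It holds genes of poly(A) binding, release and recycling, other initiation helpers, eIF2 phosphatases and kinase regulators, mTORC1 signalling and mitochondrial factors. In siSMPD1 the interval was on the lower side for 31 (68.9%), beside 28.8% of all genes, and on the higher side for 6 (13.3%), beside 28.1%, and the median log2 ratio was -0.22. Among all genes of at least 50 CPM, where intervals are narrower, 40.7% were lower and 31.1% higher. The list was not counted apart at that level. By the rule of size 1 of the 45 was lower and 0 higher, beside 1.11% and 2.49% of all genes. That gene was RPS6KB1, which encodes the S6 kinase downstream of mTORC1. RPS6KB1 stood at 30.5 CPM in siSMPD1 against 64.7 CPM in control_SMPD1, and at 67.8 CPM in siGPR64 against 83.2 CPM in control_GPR64. The siSMPD1 library was 2.12-fold lower for RPS6KB1 than its own control (1.92 to 2.34) and 2.72-fold lower than control_GPR64.

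In siGPR64, 6 of the 45 were lower by the rule of size and 0 higher, beside 5.18% and 6.56% of all genes, and the median was -0.14. DDIT4, an inhibitor of mTORC1 induced by stress, stood at 38.0 CPM in siGPR64 against 212 CPM in control_GPR64, and at 158 CPM in siSMPD1 against 103.9 CPM in control_SMPD1. It was 5.55-fold lower in siGPR64 (4.49 to 6.97) and 2.73-fold lower against control_SMPD1. PDCD4, which binds and blocks the eIF4A helicase, stood at 23.9 CPM in siGPR64 against 77.8 CPM in control_GPR64, and at 48.9 CPM in siSMPD1 against 61.8 CPM in control_SMPD1. It was 3.24-fold lower in siGPR64 (2.44 to 4.39) and 2.58-fold lower against control_SMPD1. Both genes were past the rule against either control. The other 4 were PPP1R15A, the stress-induced subunit of an eIF2 phosphatase (3.67-fold lower), SESN2, a leucine sensor upstream of mTORC1 (4.09-fold), PAIP2B, which binds the poly(A)-binding protein (2.71-fold), and ETF1, the release factor (2.41-fold). None of these 4 was past the rule against control_SMPD1, where the folds lay between 1.09 and 1.55.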

How the data were processed

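Per the labels' protocols, total RNA was depleted of ribosomal RNA and read as paired ends. The tools bcl2fastq, TopHat2, SAMtools and HTSeq and the build hg19 come from the submitters' processing notes. Annotation, strand setting and counting mode were not given there, so genes that overlap an antisense partner cannot be separated from it. Each deposited file gives a library's raw counts by gene symbol, not normalized by the authors. Its 5 HTSeq summary lines were kept apart from gene totals, and hold reads not uniquely aligned (20.1% to 30.1% of entries), outside genes (14.1% to 15.7%) and ambiguous.

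Counts were scaled with TMM factors (edgeR 4.0.16, R 4.3.3). The log2 ratio used a prior of 0.5 count, and its 95% interval comes from the exact Clopper-Pearson limits on the split of reads between the libraries. Reads carry no molecular identifiers, so these intervals cover counting error only and may be too narrow. CPM is not divided by gene length, so levels are compared for 1 gene between libraries, not between genes. The rule of size was a mean of at least 1 CPM, at least 2-fold, and an interval that excludes equality. The count of intervals on either side was added after the values were seen. As alternatives, other scalings, filters, priors, a 1.5-fold limit and the other control were used, and with the controls pooled, DESeq2 1.42.0 and the quasi-likelihood test of edgeR were used. The calculations were tested on simulated counts with counting error only. There the rule of size recovered 49% to 55% of 2-fold changes and 99% to 100% of 4-fold changes. The 2-fold changes lay exactly at the limit of the rule, so the first range does not measure its sensitivity. The rule also called 16 unchanged genes in the SMPD1 pair, 98 in the GPR64 pair and 46 between the controls. In these simulations 12722, 12828 and 12753 genes were measured. The members and lists were chosen with earlier results of these data known. Named genes are the members past the rule, the extreme members of each role group, the eIF2, eIF2B, eIF2 kinase, 4E-binding and eEF1A and eEF2 genes, and listed translation genes past the rule. Other members are named to account for every member of a role. Promoter starts come from RefSeq (GRCh38.p14) and coding sequences and named pseudogenes from GENCODE 29 (GRCh38), another build than that of the counts. Symbols are printed as deposited.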

Additional observations from a re-analysis of the deposited data

Results flagged for a closer look

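For 5 of the members that the naming rule covers, the counting intervals lay on opposite sides of equality in the 2 knockdown pairs. Each was lower in siSMPD1 than in control_SMPD1 and higher in siGPR64 than in control_GPR64. The log2 ratio of the siGPR64 pair minus that of the siSMPD1 pair was 0.95 for EIF2AK2, 0.49 for EIF2AK4, 0.66 for EIF3F, 0.73 for EIF4G3 and 0.91 for EIF5AL1. With 1 library per group the difference was not tested for any of them.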

How the results depend on the processing

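No paired analysis was possible because each group has 1 library, and the 2 pairs hold different knockdowns. At a limit of 1.5-fold, 1 member differed in siSMPD1, 8 in siGPR64 and 15 between the controls, beside 12%, 24.5% and 31.1% of all genes. Against the other control, 9 differed in siSMPD1 and 5 in siGPR64, and the median log2 ratio in siSMPD1 was -0.28. With the controls pooled, so that the spread rests on them alone (1 residual degree of freedom), 0 members reached an adjusted p of 0.05 in siGPR64 by edgeR and 0 by DESeq2, and 2 had an unadjusted p under 0.05 by each tool (EIF1AX and EIF5A2). In siSMPD1 both tools also gave 0, with 0 by edgeR and 2 by DESeq2 (EIF1 and EIF5AL1) at an unadjusted p under 0.05. Members on the higher side in siSMPD1 numbered 1 among genes of at least 50 CPM, 5 when scaled by total counts and 12 against the other control, where 2 were counted as reported. The ratio of the members' share of gene counts in siSMPD1 was 0.912 without EEF1A1 and EEF2, 0.909 without the 10 genes with most counts in the total, and 0.794 against the other control. In siGPR64 it was 1.05 without those genes and 1.15 against the other control. Between the controls it was 1.13, and 1.06 and 1.10 under the same leave-outs. The counts at 2-fold did not move past 1.5 times under other scalings, filters or priors in any of the 3 comparisons, and the median of all genes moved by less than 0.1 under each scaling. Among the genes the rule names, ETF1, PAIP2B, PPP1R15A and SESN2 no longer passed in siGPR64 against the other control, at log2 ratios of -0.39, -0.18, -0.12 and -0.63. Over both knockdowns, 54 further ratios of named genes moved outside the counting interval found with the paired control. Only 16 stayed inside it or still passed the rule. Depth limits the GPR64 pair most, where 32 counts of EIF2AK3 or 20 of EIF4E3 carry wide intervals.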
